A study of Homo sapiens with 11 samples.

Results

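The hypoxia-inducible factors (HIFs) and the proteins that sense oxygen for them are encoded by 10 genes considered here. These were chosen by their symbols from the known pathway, with earlier results of these data known. They are the α subunits HIF1A, EPAS1 (HIF-2α) and HIF3A, the partner subunits ARNT (HIF-1β) and ARNT2, the prolyl hydroxylases EGLN1 (PHD2), EGLN2 (PHD1) and EGLN3 (PHD3), the ubiquitin ligase subunit VHL, and the asparaginyl hydroxylase HIF1AN (FIH). All 10 were found among the 60676 genes counted, and 9 of them passed the filter on low counts; the exception was HIF3A. They were measured by RNA-seq in RWPE1, an immortalized line of prostate epithelial cells, kept in keratinocyte serum-free medium with pituitary extract, EGF and antibiotics. Cells were left untreated in normoxia (0 h, 3 libraries) or shifted to 1% oxygen for 6 h (3 libraries), 12 h (3 libraries) or 24 h (2 libraries), and the comparison asks how the transcriptional response changes with time in hypoxia. The medium of the hypoxic cells also received 10 mM HEPES, so that oxygen and buffer cannot be told apart in any comparison with 0 h. RWPE1 is a single line, the labels do not say whether replicates were separate cultures, and p-values therefore measure the spread between these libraries, which may be technical. The study describes triplicate samples, but the samples and count columns available here hold only 2 libraries at 24 h.

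As background, a HIF is a pair of 1 α subunit and ARNT that binds DNA and switches on genes of glycolysis, angiogenesis and survival. In oxygenated cells the EGLN enzymes hydroxylate prolines of the α subunit, VHL recognizes the hydroxylated protein and directs it to the proteasome, and HIF1AN hydroxylates an asparagine that blocks coactivator binding. All of these hydroxylases need oxygen, so the α proteins accumulate when it is scarce. The control acts on protein, whereas the values below are transcript levels.

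Libraries held 27496009 to 49488345 counted reads. Scaling factors (TMM, which correct the library size for the make-up of the RNA) ran from 0.539 in 24 h replicate 2, which stood apart, to 1.32 in a normoxic library, and levels are given as CPM, counts per 1000000 counted reads after scaling by them. With library size alone in place of these factors, the tested genes had a median log2 change against 0 h of -0.32 at 6 h, -0.50 at 12 h and -0.97 at 24 h. The basal epithelial markers (KRT5, KRT14, KRT17, TP63 and ITGB4) and the general epithelial markers were at 1 CPM or more in normoxia, 5 of 5 and 4 of 4. Of the luminal markers 2 of 5 and of the fibroblast markers 1 of 5 (COL1A1, 52.8 CPM) reached that level, while KLK3 was listed at 0 throughout and the endothelial and leukocyte markers had 0 of 4 each. Over the times in order, the summed basal markers spanned 11760.0 to 15118, 18644 to 24473, 29368 to 33272 and 28852 to 56050.0 CPM, and the summed fibroblast markers 47.2 to 60.6, 31.2 to 46.2, 32.7 to 44.8 and 28.0 to 30.5 CPM. The basal sum was mostly keratins (KRT5 7276.5, KRT17 4263.4 and KRT14 1202.6 CPM in normoxia) and hides a marker that fell. Averaged over the hypoxic times, the log2 changes of the basal markers against 0 h ran from -1.39 for TP63 to 1.70 for KRT17. The fibroblast sum was almost all COL1A1. Neither sum therefore stands for its marker list as a whole, and the part of these markers in the results below was not tested. In bulk RNA, fewer cells expressing a gene and less RNA per cell cannot be told apart.

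The promoters of the 3 prolyl hydroxylases are shown because their transcripts moved in different directions in hypoxia. Each sequence is the stretch before the RefSeq start (GRCh38, read on the gene's own strand) that holds no annotated exon, and capitals mark the core of the hypoxia response element, searched as ACGTG or GCGTG on both strands. The windows lie at chr1:231422288-231422537 (minus strand) for EGLN1, chr19:40799049-40799190 (plus strand) for EGLN2 and chr14:33951082-33951324 (minus strand) for EGLN3.
EGLN1: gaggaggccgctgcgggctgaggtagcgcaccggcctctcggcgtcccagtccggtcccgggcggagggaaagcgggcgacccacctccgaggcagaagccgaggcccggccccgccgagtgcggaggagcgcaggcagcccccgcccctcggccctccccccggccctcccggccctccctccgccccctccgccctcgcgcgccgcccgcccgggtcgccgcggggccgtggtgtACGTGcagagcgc
EGLN2: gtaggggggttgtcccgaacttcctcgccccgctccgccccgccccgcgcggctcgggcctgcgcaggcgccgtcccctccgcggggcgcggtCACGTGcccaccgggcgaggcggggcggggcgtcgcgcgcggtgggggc
EGLN3: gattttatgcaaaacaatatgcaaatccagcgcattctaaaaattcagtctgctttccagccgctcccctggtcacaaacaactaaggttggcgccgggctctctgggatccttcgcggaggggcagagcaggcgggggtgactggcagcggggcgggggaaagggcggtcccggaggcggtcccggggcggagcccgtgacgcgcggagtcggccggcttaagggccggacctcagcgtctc
EGLN1 held 1 ACGTG, 13 bases before the start. EGLN2 held CACGTG, which reads as ACGTG on both strands, 49 and 48 bases before the start. EGLN3 held neither motif in its window of 250 bases, which says only that these letters are not in this window. Promoter windows were found for 8 of the 10 genes, and of the remaining windows EPAS1 and the first of HIF1A held 1 GCGTG each and the first of HIF3A held 3. Over all 35114 windows of 250 bases, 43.2% held ACGTG or GCGTG, 18.5% ACGTG and 32.2% GCGTG, so a match is common and describes the sequence only.

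In normoxia HIF1A and EPAS1 had the highest levels of the set, and the other α subunit, HIF3A, the lowest. Compared per length of merged exons (RPKM, CPM per kilobase), HIF1A stood highest at 39.0 ± 2.73 (SD, n = 3), followed by EPAS1 at 31.2 ± 1.89. The level of ARNT was 6.63 ± 0.0768, that of HIF1AN 5.90 ± 0.0427 and that of VHL 2.53 ± 0.0906. The prolyl hydroxylases were lower, EGLN2 at 1.15 ± 0.0579, EGLN1 at 0.640 ± 0.00884 and EGLN3 at 0.347 ± 0.145, and ARNT2 was at 0.0718 ± 0.0309, above HIF3A at 0.00294. No neighbours in this order overlapped between libraries, but with the length of the canonical transcript EGLN2 (3.61 RPKM) came before VHL (2.86), and EGLN3 (0.945) and EGLN1 (0.794) overlapped. In hypoxia EGLN3 climbed from the eighth place to the third at 6 h and 12 h and to the second at 24 h (37.8 ± 11.4 RPKM, n = 2), where its libraries overlapped those of HIF1A (52.9 ± 14.8). HIF1A had the highest mean at each of the 4 times on this scale. With the canonical length EGLN3 had the higher mean in hypoxia, 70.8 against 60.7 RPKM at 6 h, 82.5 against 69.0 at 12 h and 102.8 against 69.1 at 24 h, with overlapping libraries at each time. EGLN1 and EGLN2 share 55.83% and 30.61% of their merged exon bases with other genes. Per unshared base, a length chosen after seeing the data, EGLN2 was at 1.66 and EGLN1 at 1.45 RPKM in normoxia. On that scale EGLN1 (6.23) stood above ARNT (3.68) at 6 h, and EGLN1 (3.54) above HIF1AN (2.91) at 24 h.

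**Figure D1:**
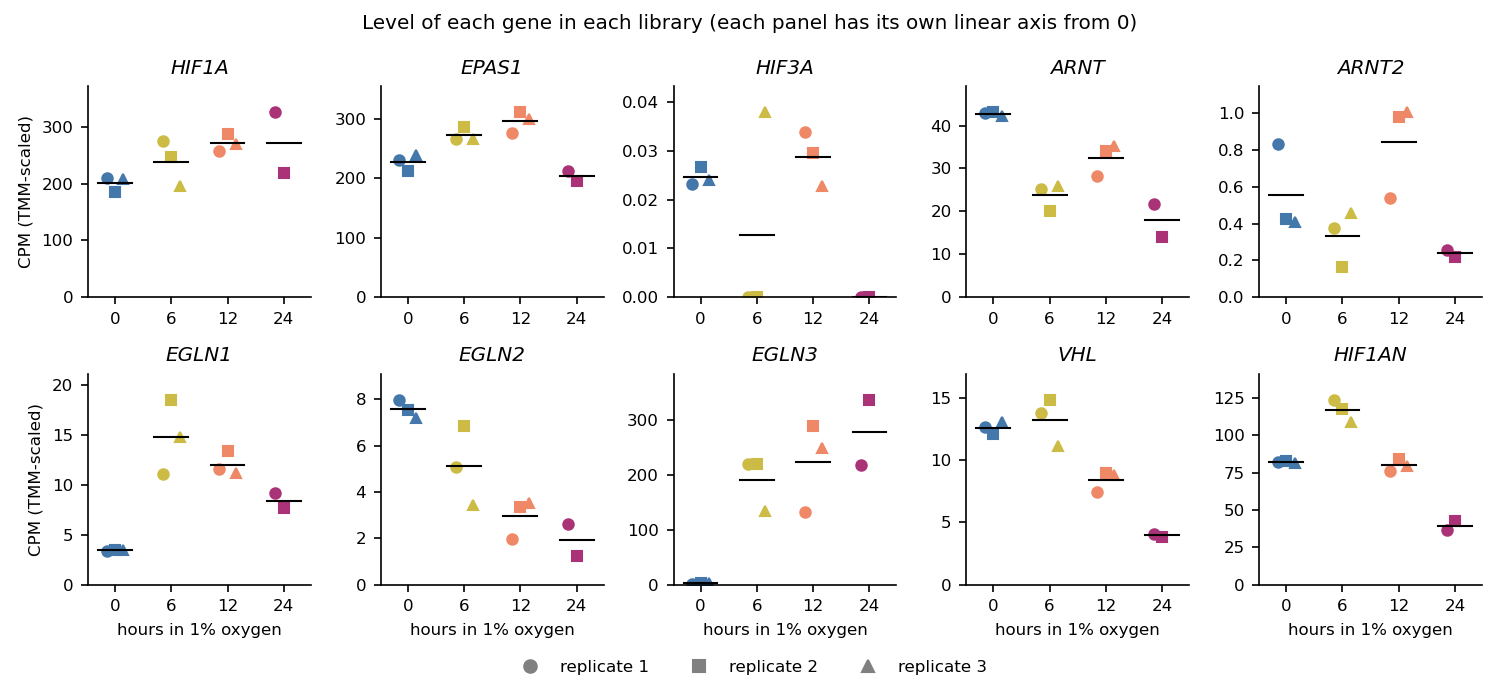
Level of each of the 10 genes in each of the 11 libraries (y axis, TMM-scaled CPM, linear from 0 and set for each panel) against hours in 1% oxygen (x axis), with a symbol for each replicate and lines for group means. EGLN3 lies at 1.41 to 3.52 CPM at 0 h and at 132 to 337 CPM in the 8 hypoxic libraries, while HIF1A and EPAS1 stay within 185 to 326 CPM and HIF3A near 0.

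Against normoxia, the hydroxylases EGLN3 and EGLN1 rose at each of the 3 times and were the only genes of the set to do so. ARNT fell at 6 h and 24 h, EGLN2 and VHL fell at 12 h and 24 h, and HIF1AN rose at 6 h and fell at 24 h. A gene is called changed where edgeR's quasi-likelihood test gave an adjusted p under 0.05, adjusted by Benjamini-Hochberg across the whole table of 19981 tested genes. Of the 9 tested genes 4 were called at 6 h (3 higher, 1 lower), where 52.8% of all tested genes were called, 25.1% higher and 27.7% lower. At 12 h 5 were called (3 higher, 2 lower) against 51.2% of all genes, 24.2% higher and 27.1% lower. At 24 h 6 were called (2 higher, 4 lower) against 61.2%, 29.9% higher and 31.3% lower. The libraries did not overlap those of 0 h for 6, 7 and 8 of the 9, against 69.6%, 72.3% and 73% of all genes. These shares are near the background, and the size and direction of the single genes carry the description. A call higher at all 3 times was made for 14.8% of the tested genes and for EGLN1 and EGLN3 here, and a call lower at all 3 times for 17.9% of genes and 0 of these 9. The 3 comparisons share their normoxic libraries.

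**Figure D2:**
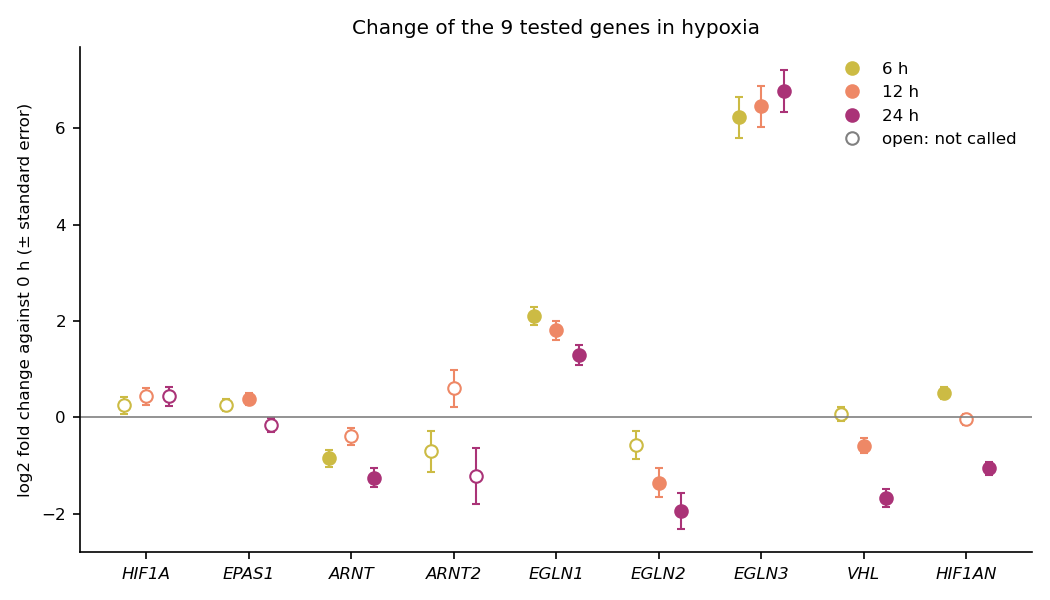
Log2 fold change against 0 h (y axis) for the 9 tested genes (x axis) at 6, 12 and 24 h, with bars for the standard error and open circles for values that were not called. EGLN3 stands at 6.23 to 6.77 and EGLN1 at 1.29 to 2.10, and every value of VHL, EGLN2, ARNT and HIF1AN at 24 h is below 0.

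HIF1A (ENSG00000100644, chr14:61695513-61748259, plus strand), the subunit stabilized in most hypoxic cells, was abundant throughout and was not called at any time. Its levels were 209.7, 185 and 209 CPM at 0 h, 276, 247 and 196 CPM at 6 h, 257, 288 and 271 CPM at 12 h, and 326 and 219 CPM at 24 h. All libraries at 12 h and 24 h were above all normoxic ones, and those at 6 h overlapped them. The log2 fold changes were 0.25 ± 0.17 (SE) at 6 h, 0.44 ± 0.17 at 12 h and 0.44 ± 0.19 at 24 h (adjusted p = 0.240, 0.0518 and 0.0644, edgeR). The 12 h value passed the threshold without 6 h replicate 3 (0.44) or without 24 h replicate 1 (0.41) or 2 (0.43), with limma-voom, DESeq2 or the compared groups alone, and narrowly without 6 h replicate 1 (0.44). At 24 h the value rested on single libraries, with 0.07 without replicate 1 and 0.68, past the threshold, without replicate 2; it also passed without 6 h replicate 3 (0.44) and, on all libraries, with DESeq2 (0.45). With library size alone the 3 values were -0.07, -0.03 and -0.41, which lie 0.25, 0.47 and 0.56 above the median of all genes on that scale.

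EPAS1 (ENSG00000116016, chr2:46293667-46386697, plus strand), the α subunit best known from endothelial and kidney cells, rose slightly at 12 h and was back near its normoxic level at 24 h. Levels were 231, 212 and 239 CPM at 0 h, 266, 287 and 265 CPM at 6 h, 277, 311 and 299.5 CPM at 12 h, and 213 and 195 CPM at 24 h. The groups at 6 h and 12 h did not overlap normoxia, and that at 24 h did. The log2 fold change was 0.38 ± 0.13 at 12 h (adjusted p = 0.0236, edgeR), against 0.26 ± 0.13 at 6 h (adjusted p = 0.0972) and -0.16 ± 0.14 at 24 h (adjusted p = 0.349). The 12 h call is fragile. It was lost without 0 h replicate 1 (0.38), 2 (0.32) or 3 (0.41), without 12 h replicate 2 (0.31) or 3 (0.37), without a filter, with a stricter filter and with library size alone (-0.09), a scale on which the 24 h value was -1.06 and called, close to the median of all genes. At 6 h the threshold was passed with DESeq2 (0.27), with sample quality weights in limma-voom (0.26), with the compared groups alone (0.25) and without 24 h replicate 1 (0.24) or 2 (0.24).

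HIF3A (ENSG00000124440, chr19:46297042-46343433, plus strand), whose products include inhibitors of the other α subunits, was not detectable at this depth beyond stray reads. It had 1 count in every library at 0 h and 12 h, 0, 0 and 2 counts at 6 h, and 0 counts in both libraries at 24 h. A count of 0 allows up to 3 counts, which correspond to 0.128 and 0.1635 CPM in the 24 h libraries, and this limit covers counting error only.

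ARNT (ENSG00000143437, chr1:150809713-150876708, minus strand), the obligate partner of the α subunits and of the dioxin receptor, fell at 6 h and 24 h. Levels were 43.0, 43.1 and 42.2 CPM at 0 h, 25.2, 20.0 and 25.9 CPM at 6 h, 28.1, 34.2 and 35.2 CPM at 12 h, and 21.7 and 14.1 CPM at 24 h. All 8 hypoxic libraries were below all 3 normoxic ones. The log2 fold change was -0.85 ± 0.17 at 6 h (adjusted p = 0.00125, edgeR) and -1.25 ± 0.20 at 24 h (adjusted p = 0.000183), or 1.80-fold and 2.38-fold lower. Both calls held in 11 of 11 fits that left out 1 library. At 12 h the value was -0.39 ± 0.17 (adjusted p = 0.0696), past the threshold without 24 h replicate 1 (-0.42) or 2 (-0.40) and in several alternative fits.

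ARNT2 (ENSG00000172379, chr15:80404350-80597933, plus strand), the partner subunit of neural tissue, was close to the detection limit, with 4 to 44 counts per library. Counts were 36, 16 and 17 at 0 h, 11, 5 and 24 at 6 h, 16, 33 and 44 at 12 h, and 6 and 4 at 24 h. Only the 24 h libraries did not overlap normoxia. No comparison with 0 h was called, with log2 fold changes of -0.70 ± 0.42, 0.60 ± 0.39 and -1.21 ± 0.58 (adjusted p = 0.181, 0.209 and 0.0866, edgeR). The 24 h value passed the threshold without a filter (-1.32) and with library size alone (-2.13), and that at 12 h with sample quality weights in limma-voom.

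EGLN3 (ENSG00000129521, chr14:33924227-34462774, minus strand), a prolyl hydroxylase known as a HIF target that acts back on the α subunits, made the steepest climb of the set. Raw counts were 61, 132 and 114 at 0 h, 6450, 6782 and 7076 at 6 h, 3898, 9746 and 10914 at 12 h, and 5117 and 6187 at 24 h. Levels were 1.41, 3.52 and 2.74 CPM in normoxia and 220.4, 219.95 and 134 CPM at 6 h. At 12 h they were 132, 289 and 249 CPM, and at 24 h 219 and 337 CPM. The lowest hypoxic library, 12 h replicate 1, was still far above the highest normoxic one. Means were 75.1-fold higher at 6 h, 87.7-fold at 12 h and 109-fold at 24 h, with log2 standard errors of 0.42, 0.43 and 0.44 (adjusted p = 6.87e-07, 9.99e-07 and 5.72e-07, edgeR). By size of the fold change EGLN3 ranked 18, 12 and 9 from the top of 19981 genes. The growth of the fold change with time depends on the scaling and on single libraries. With library size alone the log2 fold changes were 5.91, 6.00 and 5.78, which lie 6.23, 6.50 and 6.75 above the median of all genes. The 24 h value was 128-fold without 24 h replicate 1 and 85.1-fold without replicate 2.

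EGLN1 (ENSG00000135766, chr1:231363751-231422287, minus strand), the main oxygen sensor that sets α-subunit levels in normoxia, rose early and most at 6 h. Levels were 3.40, 3.49 and 3.44 CPM at 0 h, 11.1, 18.5 and 14.8 CPM at 6 h, 11.6, 13.4 and 11.2 CPM at 12 h, and 9.16 and 7.68 CPM at 24 h. All hypoxic libraries were above the narrow normoxic range. EGLN1 was 4.30-fold higher at 6 h, 3.49-fold at 12 h and 2.45-fold at 24 h, with log2 fold changes of 2.10 ± 0.19, 1.80 ± 0.19 and 1.29 ± 0.21 (adjusted p = 4.78e-06, 1.88e-05 and 0.00023, edgeR). With library size alone the 24 h value was 0.40 and not called, 1.37 above the median of all genes. Of its exon bases 55.83% are shared with ENSG00000287856 on the same strand, which had 0 to 2 counts per library. If reads in shared exons were counted for neither gene, the EGLN1 values rest on the remaining exon bases, which was not tested.

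EGLN2 (ENSG00000269858, chr19:40798996-40808434, plus strand), a hydroxylase also known as an estrogen-induced gene, moved the other way. Levels were 7.97, 7.54 and 7.21 CPM at 0 h, 5.06, 6.84 and 3.43 CPM at 6 h, 1.96, 3.35 and 3.54 CPM at 12 h, and 2.61 and 1.25 CPM at 24 h. All hypoxic libraries were below all normoxic ones. EGLN2 was 2.55-fold lower at 12 h (log2 fold change -1.35 ± 0.30, adjusted p = 0.00283, edgeR) and 3.86-fold lower at 24 h (-1.95 ± 0.38, adjusted p = 0.000721). At 6 h the value was -0.58 ± 0.30 (adjusted p = 0.118), past the threshold without 24 h replicate 1 (-0.61) or 2 (-0.60). The 24 h value was 6.27-fold lower without replicate 1 and 2.94-fold without replicate 2, and it was not called with sample quality weights in limma-voom. EGLN2 shares 95.81% of its canonical transcript with the readthrough gene RAB4B-EGLN2, which had 0 counts in all 11 libraries, so reads in shared exons were not counted for both genes. If they were counted for neither, the EGLN2 values rest on the remaining exon bases; which of these holds was not tested.

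The make-up of the hydroxylase transcripts turned over within 6 h. Per length of merged exons, EGLN3 made up 16.0% ± 5.97 of the summed EGLN1, EGLN2 and EGLN3 level at 0 h (n = 3). By 6 h its share was 87.7% ± 3.36 (n = 3). It reached 91.2% ± 2.83 by 12 h (n = 3) and 95.0% ± 2.25 by 24 h (n = 2). EGLN2, the largest share in normoxia at 54.0% ± 4.88, was at 2.60% ± 0.373 by 6 h. Its own fall at 6 h was small beside this and not called (log2 fold change -0.58). EGLN1 went from 30.0% ± 1.28 to 9.71% ± 3.27 although its own level rose. The EGLN1 and EGLN2 shares depend on the length used, and both genes share exon bases with others. EGLN1, with 55.83% of its merged exon bases shared, was at 14.9% at 0 h and 4.68% at 6 h with canonical lengths. With unshared bases it was at 41.9% and 19.2%. EGLN2, with 30.61% shared, was at 67.7% at 0 h and 3.15% at 6 h with canonical lengths. With unshared bases it was at 48.1% and 3.31%. With exon bases that no other gene shares, a length chosen after seeing the data, the EGLN3 share was 9.97% at 0 h and 77.5%, 83.1% and 90.0% in hypoxia. With canonical lengths it was 17.5%, then 92.2%, 94.8% and 97.1%.

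**Figure D3:**
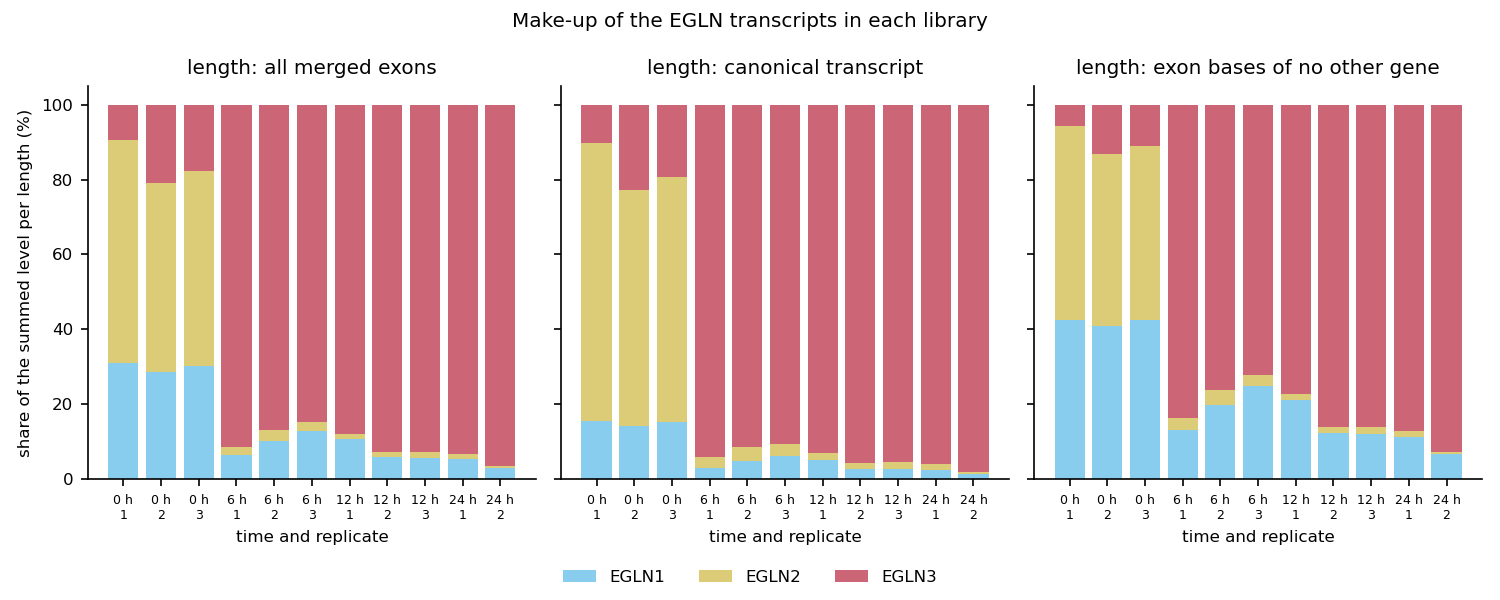
Share of the summed per-length level (y axis, percent) taken by EGLN1, EGLN2 and EGLN3 in each library (x axis, time and replicate), for 3 definitions of gene length. EGLN3 takes 9.41% to 21.0% of the merged-exon level in the normoxic libraries and 84.8% to 96.6% in the hypoxic ones.

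VHL (ENSG00000134086, chr3:10141778-10153667, plus strand), the subunit that recognizes hydroxylated α proteins, fell late. Levels were 12.7, 12.2 and 13.1 CPM at 0 h, 13.8, 14.9 and 11.2 CPM at 6 h, 7.48, 9.01 and 8.79 CPM at 12 h, and 4.11 and 3.81 CPM at 24 h. The 6 h libraries spanned the normoxic range, and all later ones lay below it. VHL was lower at 12 h (log2 fold change -0.58 ± 0.15, adjusted p = 0.00737, edgeR) and 3.18-fold lower at 24 h (-1.67 ± 0.19, adjusted p = 1.42e-05), while at 6 h the value was 0.07 ± 0.15 (adjusted p = 0.722). Both calls held in 11 of 11 fits that left out 1 library.

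HIF1AN (ENSG00000166135, chr10:100529072-100559998, plus strand), the asparaginyl hydroxylase, changed direction over the time course. Levels were 81.9, 82.7 and 81.5 CPM at 0 h, 124, 118 and 109 CPM at 6 h, 76.2, 84.0 and 79.5 CPM at 12 h, and 36.7 and 42.3 CPM at 24 h. The 6 h libraries were all above normoxia, the 12 h libraries overlapped it, and the 24 h libraries were far below. HIF1AN was 1.42-fold higher at 6 h (log2 fold change 0.51 ± 0.12, adjusted p = 0.0032, edgeR) and 2.08-fold lower at 24 h (-1.06 ± 0.14, adjusted p = 3.85e-05), with -0.04 ± 0.12 at 12 h (adjusted p = 0.807). With library size alone the 6 h value was 0.19 and not called, 0.51 above the median of all genes, and the 12 h value was -0.50 and called, at about that median.

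Between hypoxic times, VHL and HIF1AN fell at both steps, and EPAS1, ARNT and ARNT2 at the later one. From 6 h to 12 h, 2 of the 9 tested genes were called, both lower, where 4.95% of all tested genes were called, 1.88% higher and 3.07% lower. VHL fell by 0.65 ± 0.15 on the log2 scale (adjusted p = 0.0334, edgeR) and HIF1AN by 0.55 ± 0.12 (adjusted p = 0.0244), and in each the libraries of the 2 times did not overlap, which held for 4 of the 9 and 31.6% of all genes. These calls lie near the threshold: they were lost in 8 and 7 of 11 fits that left out 1 library, VHL without any of the 0 h or 12 h libraries or 6 h replicates 1 or 2 (-0.71 to -0.57), and HIF1AN without the same libraries other than 0 h replicate 2 (-0.59 to -0.50). ARNT (0.46) and ARNT2 (1.30) were higher in all 12 h than in all 6 h libraries and not called (adjusted p = 0.149 and 0.0929, edgeR); without 24 h replicate 1 or 2 both passed the threshold (0.45 and 0.47 for ARNT, 1.29 and 1.31 for ARNT2).

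From 12 h to 24 h, 5 of the 9 were called, all lower, where 28.4% of all tested genes were called, 15.1% higher and 13.3% lower, and the libraries did not overlap for 6 of the 9 and 49.1% of all genes. HIF1AN fell by 1.02 ± 0.14 on the log2 scale (adjusted p = 0.00123, edgeR), VHL by 1.09 ± 0.19 (adjusted p = 0.00256) and ARNT by 0.86 ± 0.20 (adjusted p = 0.00856). EPAS1 fell by 0.54 ± 0.14 (adjusted p = 0.016, edgeR) and ARNT2 by 1.82 ± 0.56 (adjusted p = 0.0305). The first 3 calls held in 11 of 11 fits that left out 1 library. EPAS1 lost its call without 12 h replicate 2 (-0.51) or 3 (-0.53), and ARNT2 without 12 h replicate 2 (-1.72) or 3 (-1.66) or 24 h replicate 1 (-1.98) or 2 (-1.74). When only these 2 times entered the fit, none of the 5 was called and neither was any of the 17807 genes tested (edgeR; 6 of the 9 had an unadjusted p under 0.05), against 4 with limma-voom and 5 with DESeq2 on all libraries. EGLN3 (0.32 ± 0.37) and HIF1A (0.00 ± 0.19) were not called. EGLN1 (-0.51 ± 0.21, adjusted p = 0.0883, edgeR) passed the threshold without 24 h replicate 1 (-0.67) or 6 h replicate 1 (-0.51), and EGLN2 (-0.60 ± 0.37, adjusted p = 0.245) without 24 h replicate 1 (-1.27).

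Ratios within a library do not depend on its scaling factor. Per length, ARNT stood at 9.48 ± 0.714 for every 100 of HIF1A and EPAS1 together at 0 h, and at 4.43 ± 0.927, 5.39 ± 0.436 and 3.40 ± 0.338 at 6, 12 and 24 h. VHL stood at 3.60 ± 0.121 for every 100 at 0 h, and at 3.16 ± 0.216, 1.80 ± 0.0914 and 0.995 ± 0.152. All 8 hypoxic libraries were below all 3 normoxic ones in both ratios. HIF1AN for every 100 was 8.43 ± 0.626 at 0 h, 10.0 ± 0.432 at 6 h, 6.16 ± 0.0687 at 12 h and 3.63 ± 1.09 at 24 h, above normoxia in 3 libraries and below it in 5. The HIF1A share of the α transcripts was 55.6% ± 0.619 at 0 h, 55.2% ± 4.21 at 6 h, 56.6% ± 0.371 at 12 h and 64.9% ± 5.00 at 24 h. These ratios are given as descriptions, with no test.

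Genes that overlap members were checked, since the strand setting of the counting is not given in the sources used here. The antisense gene HIF1A-AS3, which covers 5.805% of the HIF1A exon bases from the other strand, had 1, 4 and 4 counts at 0 h. It had 86, 107 and 87 counts at 6 h, 99, 125 and 129 at 12 h, and 201 and 39 at 24 h. The log2 fold changes were 5.10 ± 0.63, 5.43 ± 0.63 and 6.13 ± 0.65 (adjusted p = 3.73e-05, 3.1e-05 and 8.85e-06, edgeR), and the last was 4.73 without 24 h replicate 1 and 6.78 without replicate 2. Its counts are small beside the 4013 to 11855 of HIF1A, and if strand was not used, reads of the 2 genes cannot be told apart. HIF1A-AS1, also antisense, had 0 to 4 counts. NDUFB8, a subunit of complex I that overlaps 2.339% of HIF1AN exon bases on the other strand, was 3.87-fold higher at 24 h (adjusted p = 4.43e-05, edgeR), 2.32-fold without replicate 2, while HIF1AN fell. ENSG00000287086, which overlaps 23.46% of VHL exon bases on the other strand, had 41 to 96 counts at 0 to 12 h and 5 and 26 at 24 h. Its log2 fold change of -1.40 ± 0.48 at 24 h (adjusted p = 0.024, edgeR) was -0.59 and not called without replicate 1, -1.37 and not called without 0 h replicate 2, and -3.26 without 24 h replicate 2.

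The other genes of the pathway were taken from lists of known function, chosen with earlier results of these data known. They are described by counts. Of all tested genes 25.1%, 24.2% and 29.9% were called higher at 6, 12 and 24 h, and 27.7%, 27.1% and 31.3% lower. The 27 tested HIF target genes, of 28, were called higher at every time (27 of 27), and their median log2 fold change was 2.08, then 2.36 and 2.47, where all genes had medians of 0.00, -0.03 and -0.06. With library size alone 26, 26 and 24 of the target genes were called, against 49.3%, 52.9% and 67.7% of all tested genes. By their average over the 3 times, the lowest of these genes was ERO1A, an oxidase of the endoplasmic reticulum (1.06, 0.87 and 1.24, the last 2 not called with library size alone). ANGPTL4, a secreted inhibitor of lipoprotein lipase, was the highest (4.59, 4.96 and 6.61, the last 5.65 without 24 h replicate 2). The 24 h value of VEGFA rested on a single library, with a log2 fold change of 0.06 without 24 h replicate 1 and 1.35 without replicate 2.

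Of the 6 listed partners of the VHL ubiquitin ligase, 3 were called higher at 6 h, 3 at 12 h and 5 at 24 h, and 0 lower, with medians of 0.62, 0.59 and 1.65. Of all tested genes 25.1%, 24.2% and 29.9% were called higher at these times. With library size alone 1, 1 and 4 of the partners were called, against 49.3%, 52.9% and 67.7% of all tested genes. ELOB (elongin B), a subunit of the ligase, had 0.65, 0.98 and 2.15. CUL2, the cullin scaffold, had 0.09, 0.26 and 0.34 without a call. Its last value was -0.08 without 24 h replicate 1 and 0.61 without replicate 2. With library size alone CUL2 was below 0 at each time. The 6 h call of ELOB held in 2 of 11 fits that left out 1 library. The 24 h values were lower without replicate 2, where ELOB was at 1.25, RBX1 at 0.68 in place of 1.72, and NEDD8 at 1.07 in place of 1.71, all still called.

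Of 16 factors that act on the stability of α subunits or hydroxylases, 7, 8 and 9 were called higher and 3, 3 and 4 lower at 6, 12 and 24 h. Of all tested genes 25.1%, 24.2% and 29.9% were called higher and 27.7%, 27.1% and 31.3% lower. The counts of the later lists in this paragraph stand beside the same shares. SIAH2, a ubiquitin ligase that targets prolyl hydroxylases, rose by 2.0, 1.27 and 1.02 on the log2 scale, whereas its paralog SIAH1 fell by 1.08, 1.07 and 0.95. P4HTM, a transmembrane prolyl hydroxylase that also acts on α subunits, fell by 1.16, 1.06 and 0.82. At 24 h SIAH2 was not called with library size alone (0.13), nor SIAH1 (-0.99) and P4HTM (-0.87) with sample quality weights. HSP90AA1, the inducible chaperone that protects HIF-1α, was the highest of the list (3.54, 3.47 and 3.74), and USP20, a deubiquitinase of HIF-1α, the lowest (-1.40, -1.22 and -1.61). Among 8 coactivators and CITED proteins 2, 2 and 2 were called higher and 2, 1 and 3 lower. CITED2, which competes with HIF-1α for the coactivators, rose by 1.78, 1.54 and 1.20 (the last 0.29 and not called with library size alone), and NCOA2, a coactivator, fell by 1.07, 0.95 and 2.01. Of 11 bHLH-PAS relatives, the family of HIF subunits, 7 were tested, and 2, 1 and 1 were called higher and 2, 1 and 2 lower. The clock gene BMAL1 was highest (1.76, 1.67 and 1.85; the last 1.02 without 24 h replicate 1), and AHR, the dioxin receptor that also pairs with ARNT, lowest (-1.0, -1.65 and -0.76). The 24 h call of AHR held in 2 of 11 fits that left out 1 library, with -0.24 and no call without 24 h replicate 1 and -1.74 without replicate 2.

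**Figure D4:**
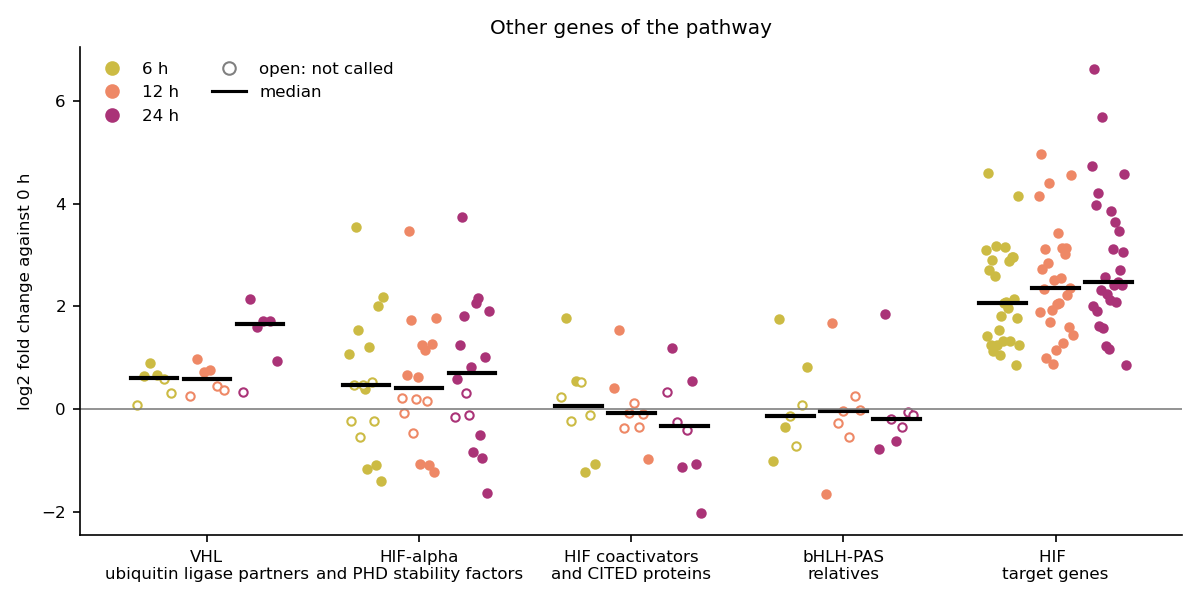
Log2 fold change against 0 h (y axis) of the tested genes in 5 lists of the pathway (x axis) at 6, 12 and 24 h, with open circles for values that were not called and bars for list medians. All 27 HIF target genes lie above 0 at each time, and the medians of the VHL ligase partners are 0.62, 0.59 and 1.65.

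The genes whose log2 CPM ran most like that of EGLN3 over the 11 libraries, among 13938 genes with a symbol and a mean of at least 1 CPM, were IGFBP3 (Pearson r = 0.992), LDHAP7 (0.992), ANO7 (0.991), PAPSS2 (0.990) and LDHA (0.989). These are descriptions over libraries that fall into a normoxic and a hypoxic cluster. Mean levels of IGFBP3, a binding protein of insulin-like growth factors, were 5.91 CPM at 0 h and 208, 242 and 454 CPM in hypoxia, where EGLN3 had 2.56, then 191, 223 and 278 CPM. LDHA, lactate dehydrogenase A, had 361 CPM at 0 h and 3238, 3868 and 5258 CPM in hypoxia, and LDHAP7 is a pseudogene of it whose reads cannot be surely separated.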

How the data were processed

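RNA was DNase-treated, built into stranded libraries as 1 batch and sequenced as single ends. The authors trimmed reads with Trimmomatic, aligned them with STAR to GRCh38 (Ensembl 99) and deposited whole-number counts per Ensembl gene from featureCounts, neither filtered nor normalized; strand and multi-overlap settings are not given in the sources used here. All 11 columns were matched to samples by time and replicate.

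Genes were annotated from GENCODE 44 on GRCh38 (60357 of 60676 identifiers found). filterByExpr (minimum count 10, total 15, by time) kept 19981 genes, which were scaled by TMM and tested by edgeR's quasi-likelihood test with 1 mean per time over 11 libraries. Standard errors are the absolute log2 fold change over the square root of F, and CPM are counts over TMM-scaled library size with no prior. The biological coefficient of variation was 19.6%. RPKM used merged exons, with canonical transcripts and unshared exon bases as alternatives, the last added after seeing the data. SD are over libraries. Limits for 0 counts take 3 counts.

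The 10 genes and all lists were chosen with earlier results of these data known. Named genes are the 10 members, for each list the highest and lowest average against 0 h, CITED2, SIAH1, SIAH2 and P4HTM, the 5 genes most correlated with EGLN3, and overlapping genes with counts. ELOB's neighbours RBX1 and NEDD8, and VEGFA, were named after their values were seen. Replicate numbers did not pair the libraries. Alternatives were limma-voom without and with weights for sample quality, DESeq2, median-of-ratios factors, library size alone, no filter, at least 10 counts in every library, the compared groups alone, a replicate block, and each library left out. Tests were checked on simulated counts in which few genes changed. That check cannot speak to scaling in these data, where 51.2% to 61.2% of tested genes were called against 0 h. Promoter sequences are from RefSeq (GRCh38.p14). Tools: edgeR 4.0.16, DESeq2 1.42.0 and limma 3.58.1 ran in R 4.3.3.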

Additional observations from a re-analysis of the deposited data

Results flagged for a closer look

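Within hypoxia, 7 differences between successive times passed the test of the difference itself (edgeR's quasi-likelihood test, Benjamini-Hochberg adjusted), and all are lower at the later time. From 6 h to 12 h the log2 difference was -0.65 for VHL and -0.55 for HIF1AN. From 12 h to 24 h it was -0.54 for EPAS1, -0.86 for ARNT, -1.82 for ARNT2, -1.09 for VHL and -1.02 for HIF1AN. VHL and HIF1AN appear in both steps. The later step rests on 2 libraries at 24 h, one of which has the lowest scaling factor, 0.539, and the part of that library's make-up in these differences was not tested beyond leaving it out: without 24 h replicate 2 the calls of EPAS1, ARNT, VHL and HIF1AN held, and that of ARNT2 did not.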

How the results depend on the processing

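Of 895 recomputed values for single genes of the set, 781 kept direction and side of the threshold, 47 lost a call, 45 gained one and 22 changed sign. Counts of called genes were most sensitive in the later steps. The share of all genes called in the same fit stands in brackets. Ranges are over fits that left out a 0, 6 or 12 h library, since leaving out a 24 h library leaves 1 there. Without a 24 h library, more genes of the set passed the threshold at 6 h and 12 h against 0 h and from 6 h to 12 h. More of all tested genes passed it as well, so these counts also depend on the spread between the 24 h libraries. From 6 h to 12 h, 2 (4.95%) became 5 with sample quality weights (22.5%), 1 with library size alone (3.45%) and 1 without a filter (4.2%). With 1 library left out it was 0 to 2 (0.306% to 5.05%). From 12 h to 24 h, 5 (28.4%) became 1 with sample quality weights (5.47%) and 0 with only the groups compared (0%). With 1 library left out it was 3 to 6 (15.4% to 29.1%). At 12 h against 0 h, 5 (51.2%) became 8 with sample quality weights (74.6%) and 4 to 6 with 1 library left out (41.5% to 51.6%). At 6 h against 0 h, 4 (52.8%) became 3 with library size alone (49.3%) and 6 with sample quality weights (66%). It stayed 4 with a 0, 6 or 12 h library left out (44% to 52.5%). At 24 h against 0 h, 6 (61.2%) became 5 with sample quality weights (30.9%) and 7 with library size alone (67.7%). With 1 library left out it was 6 to 7 (54.6% to 61.8%).

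No called value of the set changed sign apart from EPAS1 at 12 h with library size alone (-0.086). Uncalled values that turned with library size alone were HIF1A at 6, 12 and 24 h (-0.069, -0.028 and -0.41), EPAS1 and VHL at 6 h (-0.058 and -0.25), EPAS1 from 6 h to 12 h (-0.028), HIF1A and EGLN3 from 12 h to 24 h (-0.38 and -0.21), and CUL2 at 6, 12 and 24 h (-0.23, -0.20 and -0.51). VHL at 6 h was -0.018 with at least 10 counts in every library, and -0.016 to 0.18 with 1 library left out, lowest without 6 h replicate 2. EGLN3 with 1 library left out was -0.010 to 0.49 from 6 h to 12 h, lowest without 12 h replicate 2, and -0.046 to 0.56 from 12 h to 24 h, lowest without 24 h replicate 2. CUL2 at 24 h was -0.082 to 0.61. HIF1A from 12 h to 24 h, near 0 as reported, was -0.029 with limma-voom, -0.031 with quality weights, -0.088 without a filter, -0.036 with at least 10 counts, -0.023 with the groups alone, -0.057 with the replicate block, and -0.34 to 0.25 with 1 library left out. The cause was not tested.

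Replicate numbers are shared by the groups, but same-numbered libraries correlated in their deviations at -0.156 to 0.207, over 0.1 in 2 of 15 pairs, against -0.271 to 0.283 for other pairs. The replicate block called 0 of the set in place of 2 from 6 h to 12 h (edgeR, 2.55% of all genes called, 5 members with an unadjusted p under 0.05; 2 with limma-voom and with DESeq2 unblocked), and ARNT2 lost its call from 12 h to 24 h (-1.79). Depth limits HIF3A and ARNT2.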
